A study of Mus musculus with 12 samples.

Results

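Untreated Kupffer cells, labelled M0, were described by the level of their transcripts on 2 Illumina bead arrays, out of 12 arrays in the series. Members were the probes with a detection p-value under 0.05 on both M0 arrays, which compares a probe with the negative control beads of its own array. Of 25697 probes, 11072 (43.1%) met this rule, and they stood for 8456 genes, 7804 of them with a gene symbol. A gene with several detected probes was given the signal of its brightest probe, and genes were ranked by the mean signal of the M0 pair. The detection p-values chose the members and the signals ranked them, so levels in M0 are a description and carry no test.

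The cells were primary Kupffer cells of male C57BL/6 mice aged 8 weeks, taken from livers perfused with type IV collagenase, collected from a Percoll layer and plated in RPMI medium with fetal bovine serum. The M0 cells had no named treatment and no stated time in culture. The groups set beside them were LPS cells, given lipopolysaccharide at 10 ng/ml, IL-4 cells, given interleukin 4 at 20 ng/ml, and vehicle cells, given DMSO, each for 24 h and each with 2 arrays. The remaining 4 arrays, of cells given SR3335 or SR1078, compounds that the labels tie to the nuclear receptor ROR-alpha, entered the shared normalization, the filter on dim probes and the estimate of spread, and no comparison. No label states whether the paired arrays of a group were separate mice or cultures, or whether livers were pooled. The p-values below therefore measure only the spread between these arrays, which may be technical.

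Kupffer cells are the resident macrophages of the liver. They sit in the sinusoids, where they take up bacteria, immune complexes, worn red cells and lipoproteins from portal blood, recycle iron from heme, and present antigen. The complement receptor CRIg (Vsig4) and the lectin Clec4f are among their best known surface markers in the mouse, and they are a main source of the first complement component, C1q. The transcription factors PU.1 (Spi1), LXR-alpha (Nr1h3) and Spic belong to the programme by which mouse Kupffer cells and related iron-recycling macrophages are recognised.

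The label was borne out by the markers given for these cells. Cd74, the invariant chain of MHC class II, had signals of 34818 and 36112 on the 2 M0 arrays. C1qa, a chain of C1q, had 14085 and 14902, and Vsig4, the receptor that captures C3b-coated particles, had 19556 and 21537. The mean background inferred from the detection p-values was 164 and 163 on the same arrays, so all of these lay far above it. Of the 21 Kupffer cell identity genes with a probe, 18 were detected on both M0 arrays, and all 17 probed macrophage genes were. Over all genes with a probe the share was 8456 of 18312 (46.2%). Sinusoidal endothelial markers reached 15 of 18 (83.3%), with a median signal of 792. The share of detected genes alone therefore does not set Kupffer cells apart from endothelium.

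Among the Kupffer cell identity genes the highest signals were those of Fcna, Slc40a1, Vsig4 and Vcam1. Fcna, ficolin A, is a secreted lectin that starts the lectin pathway of complement, and its signals were 45637 and 48549. Slc40a1 is ferroportin, the iron exporter of the cell membrane, with 47677 and 46475. Vcam1, an adhesion molecule, had 20674 and 19514. Clec4f had 13315 and 14106, Folr2, a folate receptor of resident macrophages, 12534 and 12112, and Timd4, a receptor for phosphatidylserine on dying cells, 987 and 1104. Cd5l, a secreted protein of tissue macrophages, and Kcna2, a potassium channel, were detected on neither M0 array and on none of the LPS, IL-4 and vehicle arrays, and the haptoglobin-hemoglobin receptor Cd163 was detected on 1 of 2. The members that were detected ranged from 659 to 47093, with a median of 3079, beside a median of 818 over all detected genes.

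Complement genes gave the sequences shown here, because C1qb, C1qc, ficolin A and CRIg were at once macrophage markers and among the bright genes of M0. The promoter of C1qa is not shown. C1qb had signals of 44468 and 44458 and C1qc 38698 and 40542, and together with C1qa they encode the chains of C1q. Each sequence is the stretch from 250 bases before to 50 bases after the annotated transcription start, 5′ to 3′ along the gene's strand, from RefSeq on build GRCm38.p6. Capitals mark GAGGAA, a core motif of PU.1, or its reverse complement TTCCTC. C1qb lies on chromosome 4 (chr4:136886151-136886450, minus strand), C1qc next to it (chr4:136892865-136893164, minus strand), Vsig4 on the X chromosome (chrX:96293389-96293688, minus strand) and Fcna on chromosome 2 (chr2:25627925-25628224, minus strand).

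C1qb: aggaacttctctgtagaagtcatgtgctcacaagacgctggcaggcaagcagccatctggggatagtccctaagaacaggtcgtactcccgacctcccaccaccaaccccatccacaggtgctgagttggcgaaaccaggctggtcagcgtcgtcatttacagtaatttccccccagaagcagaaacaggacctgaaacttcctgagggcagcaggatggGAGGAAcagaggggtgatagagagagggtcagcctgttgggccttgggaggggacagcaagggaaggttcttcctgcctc
C1qc: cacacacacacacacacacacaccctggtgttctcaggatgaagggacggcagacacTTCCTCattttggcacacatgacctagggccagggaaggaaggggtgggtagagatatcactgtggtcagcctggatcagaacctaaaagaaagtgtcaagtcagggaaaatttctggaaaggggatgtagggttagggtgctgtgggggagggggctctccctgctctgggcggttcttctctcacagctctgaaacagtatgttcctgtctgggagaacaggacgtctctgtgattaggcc
Vsig4: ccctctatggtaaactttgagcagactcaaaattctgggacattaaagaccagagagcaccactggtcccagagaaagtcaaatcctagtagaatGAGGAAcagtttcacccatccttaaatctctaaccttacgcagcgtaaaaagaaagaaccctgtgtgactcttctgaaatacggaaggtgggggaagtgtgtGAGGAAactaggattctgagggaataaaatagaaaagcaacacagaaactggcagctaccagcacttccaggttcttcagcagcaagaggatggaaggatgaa
Fcna: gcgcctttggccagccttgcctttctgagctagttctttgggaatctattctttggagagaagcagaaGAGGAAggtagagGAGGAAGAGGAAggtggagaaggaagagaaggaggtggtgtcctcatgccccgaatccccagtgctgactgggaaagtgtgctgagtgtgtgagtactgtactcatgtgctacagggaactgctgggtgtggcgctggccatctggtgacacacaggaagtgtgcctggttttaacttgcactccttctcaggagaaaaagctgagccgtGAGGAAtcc

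The C1qb promoter held 1 match, which began 30 bases before the start, and the C1qc promoter held 1 match on the opposite strand, 193 bases before the start. The Vsig4 promoter held matches 155 and 53 bases before the start. The Fcna promoter held 3 matches close together, 182, 169 and 163 bases before the start, and 1 that began 41 bases after it. Shares were counted by gene over both strands, and a gene counted if any of its promoters of this length held GAGGAA. Of all 27025 genes with a promoter, 8446 (31.3%) held it. So did 1998 of the 6433 genes with a promoter that were detected on both M0 arrays (31.1%). Among the 100 brightest named genes it was 25 of the 74 with a promoter (33.8%). The share was 8 of 12 for the macrophage list (66.7%), 11 of 22 for the lysosome list (50%), 6 of 17 for the Kupffer cell identity list (35.3%) and 8 of 33 for the ribosomal protein list (24.2%). Each promoter shown held a match. C1qa was not among the macrophage genes counted with one, but only 12 of the 20 listed macrophage genes had a promoter to search. Whether C1qa was among those 12 is not reported here. These matches describe letters in a window and show no binding.

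The M0 pair was closely alike. On each M0 array 11663 and 11550 probes were detected, 591 only on the first and 478 only on the second, within the 11474 to 12623 detected over all 12 arrays. Over the detected genes the log2 signals of the pair correlated across genes at r = 0.997, the SD of the log2 difference was 0.133, and no probe had the same value on both arrays. The median ratio between the higher and the lower array of a gene was 1.05. In 29 genes the ratio exceeded 1.5, and in 5 it exceeded 2. The arrays of the vehicle group had a lower background, 98.5 and 103, against 164 and 163 on the M0 arrays, so raw signals of dim genes are not on one scale between these sets. Raw signals of bright genes can also differ in scale. Ctsb had mean signals of 38586 in M0 and 46619 in vehicle cells, but a log2 difference of 0.018 after normalization. At the detection limit the last genes inside were Ifrd1, Ptpn5 and Chdh, whose higher detection value was 0.0489, and the first outside were Nat14, Pecr and 1 probe without a symbol, at 0.0501. The lowest mean signal of any member was 197.

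**Figure D1:**
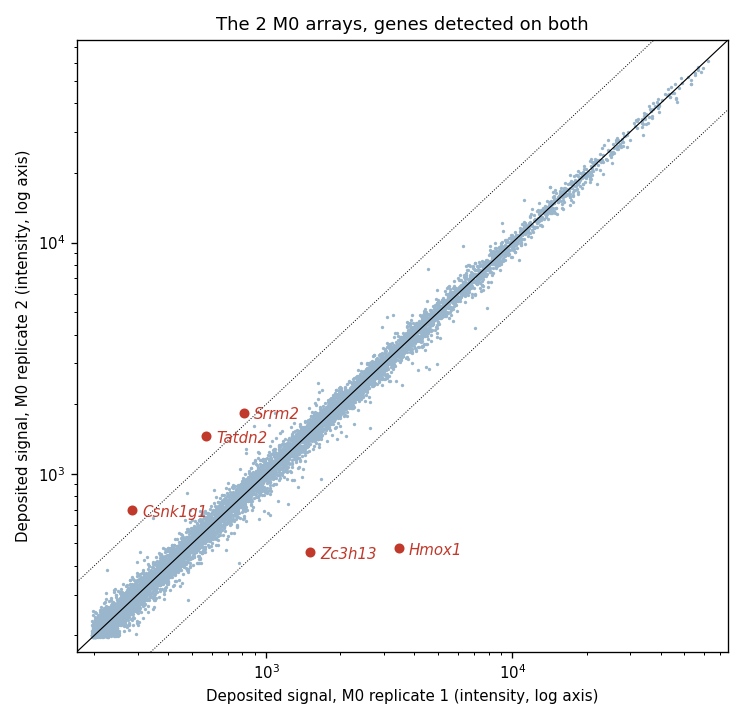
Signal of each gene detected on both M0 arrays, replicate 1 against replicate 2, on log axes in arbitrary units, 1 point per gene. The solid line marks equal signals, the dotted lines a ratio of 2, and the 5 genes in red are the only ones beyond it.

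Hmox1 was the gene that differed most within the M0 pair. It encodes heme oxygenase 1, which breaks down heme, and is induced by heme and by oxidative stress. Its signals were 3446 and 477 in M0, a ratio of 7.22, 16688 and 6014 in LPS, 4551 and 1290.1 in IL-4 and 18747 and 23797 in vehicle cells. In M0, LPS and IL-4 the first array was the higher, and the M0 and IL-4 ranges overlapped. Its level in resting cells was therefore known only to within this spread. The other genes beyond a ratio of 2 were Zc3h13 (1509 and 458), Tatdn2 (571 and 1454), Csnk1g1 (286 and 694) and Srrm2 (808 and 1841), and in the last 3 the second array was the higher.

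Of the 30 brightest named genes of resting Kupffer cells, 5 were on the lysosome list, 4 on the ribosomal protein list, 3 each on the macrophage and iron lists, and 10 on no list. A small part of the genes carried much of the signal. The 100 brightest detected genes held 17.6% of the summed signal above background, and the 1000 brightest held 62.9%. Signals over 10000 were reached by 462 genes, 3336 lay between 1000 and 10000, and 4658 were at or below 1000.

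The named gene with the highest signal was Cstb, cystatin B, an inhibitor of lysosomal cathepsins, with 62153 and 60759. Itm2b, a type II membrane protein that is cleaved in the secretory pathway, had 56940.2 and 57263. Actb, cytoplasmic beta-actin, had 55341 and 54341 and Fth1, the heavy chain of the iron store ferritin, had 55136 and 52853. The ribosomal protein gene Rpl41 followed with 51795 and 51991. Slc11a1, the metal ion transporter of the phagosome membrane that limits intracellular bacteria, had 52994 and 50530.0. Psap, the precursor of the saposins that help degrade sphingolipids, had 53240.1 and 48489. Ifitm3, an interferon-induced membrane protein that restricts virus entry, had 52959 and 48618. The ratio between the M0 arrays was at most 1.10 in these genes, in Psap. Some probes without a symbol also ranked among them and are not described.

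**Figure D2:**
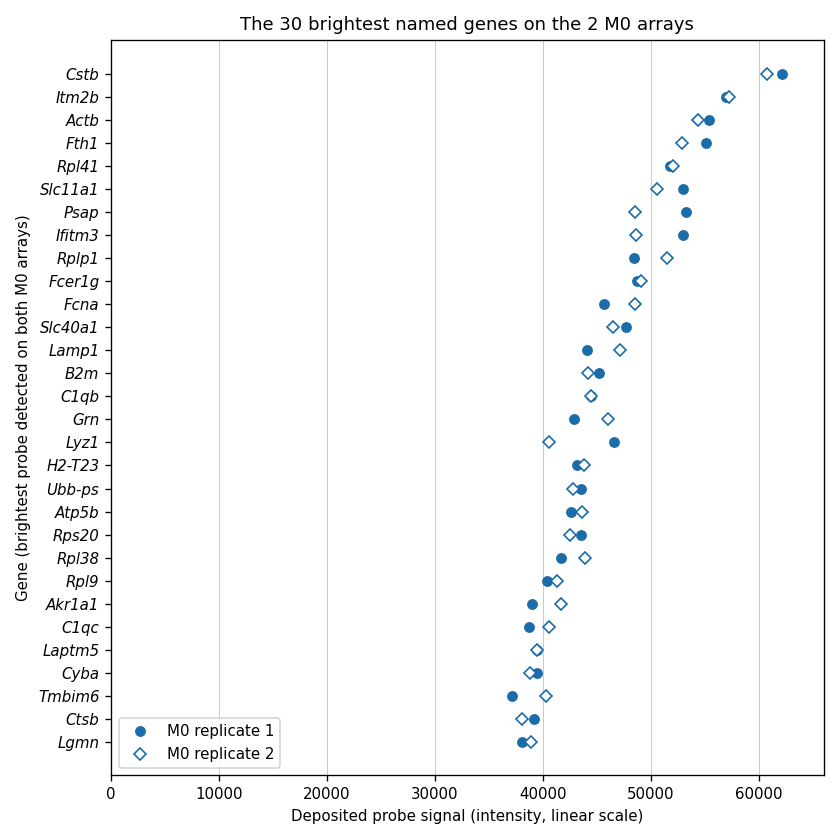
The 30 named genes with the highest mean signal in M0, in rank order, with 1 point for each M0 array on a linear axis from 0 in arbitrary units. Signals ran from 62153 and 60759 for Cstb to 38052 and 38896 for Lgmn, and the points of a pair lie close together.

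Further down the brightest 30 stood Fcer1g, the signalling chain shared by Fc receptors, with 48667 and 49047, B2m, the light chain of MHC class I, with 45166 and 44142, and Lyz1, a lysozyme, with 46559 and 40597. The remaining genes of the 30 were Rplp1, Fcna, Slc40a1, Lamp1, C1qb, Grn, H2-T23, Ubb-ps, Atp5b, Rps20, Rpl38, Rpl9, Akr1a1, C1qc, Laptm5, Cyba, Tmbim6, Ctsb and Lgmn. Lyz1 and Lyz2, Ubb-ps and the ubiquitin genes, and the class I H2 genes have near-identical copies, and whether these probes bind the copies was not checked, so their values are uncertain. Of the 100 brightest named genes, 15 were on the ribosomal protein list, 7 on the lysosome list, 6 on the macrophage list, 3 each on the iron, lipid and complement lists, and 51 on no list.

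A signal also reflects how well its probe binds, so the ranks are ranks of probe signals and not of transcript amounts. Of the 3020 detected genes with several probes, 1516 had another probe that was not detected on both M0 arrays, and the median ratio of the brightest to the dimmest probe was 2.92. Actb itself had 5 probes, with mean signals between 214 and 54841. The interferon-induced GTPase Gbp2, named here after its values were seen, had 3 probes at 36767, 376 and 207. Ftl1, the ferritin light chain, was not detected, beside Fth1 among the brightest genes, and the probe of Ctsd, cathepsin D, gave only 388 and 458. For Cd74, by contrast, both probes were high, at 35465 and 33804.

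Iron and heme handling genes were detected for 18 of 20 probed members, with a median of 2696. After Fth1, Slc11a1 and Slc40a1 the highest was Blvrb, a biliverdin reductase that acts after heme is opened, with 19986 and 20709. Spic, the transcription factor that red pulp and other iron-recycling macrophages need, had 18284 and 18122. Hamp, the iron hormone hepcidin that hepatocytes make, was near the detection limit at 229.6 and 212. Import, storage, export and heme breakdown were thus each represented among the detected genes, apart from Ftl1, whose probe was at background, and Cd163, detected on 1 array.

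Lysosome and cathepsin genes stood high as a group, with 24 of 26 detected and a median of 11247. Lamp1, a main glycoprotein of the lysosome membrane, had 44091 and 47135, Grn, progranulin, had 42879 and 46034, and the protease cathepsin B (Ctsb) had 39152 and 38020.5. Lgmn, an asparagine-specific protease of the lysosome, had 38052 and 38896. Ctse, cathepsin E, and Atp6v0d2, a subunit of the proton pump, were at background.

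Lipid handling genes were detected for 13 of 20. Lpl, lipoprotein lipase, had 39413 and 36537, Apoe 31374 and 31988, and Apoc1, another apolipoprotein, 29349.8 and 30122. Pltp, which moves phospholipids between lipoproteins, had 10836 and 10777. The cholesterol exporter Abca1, the fatty acid binding protein Fabp4 and the fatty acid receptor Cd36 were detected on no M0 array.

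**Figure D3:**
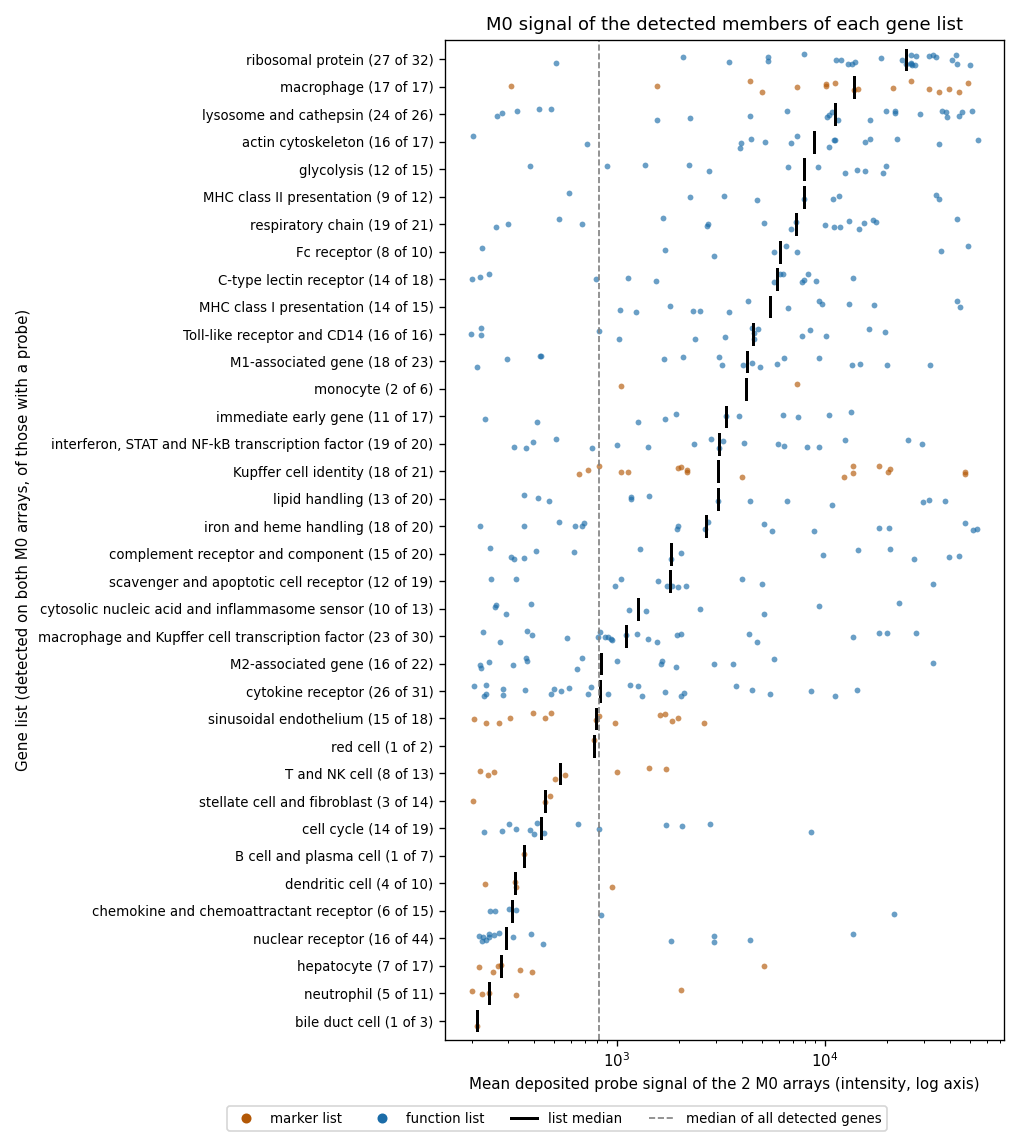
Mean M0 signal of the detected members of 36 gene lists, 1 point per gene, on a log axis in arbitrary units, with a black bar at each list's median and a dashed line at the median of all detected genes, 818. The ribosomal, macrophage and lysosome lists have the highest medians, and the medians of the neutrophil and bile duct lists lie near the detection limit.

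Complement was represented by its recognition molecules, its early proteases, its regulators and its receptors, with 15 of 20 probed members detected. Beside the C1q chains, C2, the protease of the classical and lectin pathways, had 27314 and 26440.1 and C4b, its cofactor, 10047 and 9529.9. Cfb, factor B of the alternative pathway, had 2129 and 1952. The anaphylatoxin receptor C3ar1, the integrin chain Itgax and the C1 protease C1ra were not detected. Itgam, the alpha chain of complement receptor 3, had only 312 and 309, and the C5a receptor C5ar1 258 and 235. The receptor for C3b fragments that was bright was Vsig4.

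Receptors for immunoglobulin were detected for 8 of 10 probed members, with a median of 6114. Fcgr4, an activating IgG receptor, had 36915 and 35255 and Fcgr1, the high-affinity IgG receptor, 7402 and 7314. Fcgrt, the neonatal Fc receptor that recycles IgG and albumin, had 6291 and 6739. The inhibitory receptor Fcgr2b had 1675 and 1747. The alpha chain of the IgE receptor, Fcer1a, and Pigr, which carries IgA across epithelia, were at background.

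Of the C-type lectin receptors, 14 of 18 were detected, with a median of 5904. After Clec4f the highest were Clec4n, dectin-2, which binds fungal mannans, at 9164 and 8927, Clec4a1 at 8499 and 8187, and Clec7a, dectin-1, the receptor for beta-glucan, at 7833 and 8134. Mrc1, the mannose receptor, had 5564 and 5834. Clec4a2, Clec10a and Cd209b were not detected.

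Every probed Toll-like receptor gene and cofactor on the list, 16 of 16, was detected, from 198 to 19558. The highest signals were those of Unc93b1, which brings the nucleic acid receptors to endosomes (19143 and 19973), and Myd88, the shared adaptor (16239 and 16373). Cd14, which hands lipopolysaccharide to its receptor, had 10101 and 10079. Tlr2, the receptor for bacterial lipopeptides, had 8720.2 and 8202 and Tlr4, the receptor for lipopolysaccharide, 3267 and 3349. The lowest were Tlr3 at 236 and 208, Tlr11 at 219 and 226 and Tlr12 at 197 and 198, near the detection limit.

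Cytosolic sensors were detected for 10 of 13. Casp1, the protease that inflammasomes activate, had 22758 and 22761, and Dhx58, an RNA helicase of the RIG-I family, 9183 and 9518. Nod1, a sensor of bacterial cell wall fragments, had 4992 and 5238 and Mefv, pyrin, 2594 and 2411. The inflammasome sensors Nlrp3 and Nlrp1a and the RNA sensor Ifih1 were not detected on either M0 array.

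For scavenging and the uptake of dying cells, 12 of 19 probed genes were detected. Axl, a receptor tyrosine kinase that binds Gas6 on apoptotic cells, had 32373 and 34240.4, and its relative Mertk 5017 and 4986. Marco, a scavenger receptor for bacteria, had 3887 and 4067, and Scarb2, a lysosomal membrane protein, 2069.6 and 2232. The third member of the Axl family, Tyro3, and the scavenger receptors Msr1 and Cd36 were at background.

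Cytokine receptors were detected for 26 of 31 and had a median of 829.7, close to that of all detected genes. The receptors of TGF-beta were the highest, Tgfbr1 at 14462 and 14033 and Tgfbr2 at 11154 and 11217. Cd40, the receptor for the T cell ligand CD154, had 8872 and 8368 and Il10ra, the ligand-binding chain of the interleukin 10 receptor, 5373 and 5559. Il13ra1, which pairs with the IL-4 receptor alpha chain, had 2166 and 2023, and Ifngr1, the ligand-binding interferon-gamma receptor chain, 3699.5 and 3813. The interferon receptor chain Ifnar1 and the receptors Il13ra2 and Il18r1 were not detected. Csf1r, the receptor on which macrophage survival depends, and Il4ra had no usable probe and were not analysed here.

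Chemokine and chemoattractant receptors were detected for 6 of 15, beside 46.2% of all genes with a probe. Fpr2, a formyl peptide receptor, had 23247 and 19699.7. The next was Cxcr4, the receptor for CXCL12, with 837 and 847, followed by Ccr7 with 317 and 338. Ccr1, Ccr2, the receptor that brings monocytes out of the marrow, and Ccr3 were at background.

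Of the transcription factors tied to macrophages and Kupffer cells, 23 of 30 were detected, with a median of 1108. Cebpb, a factor of myeloid differentiation, had 27973 and 27136 and Klf6 22095 and 17949. Nr1h3 had 13580.4 and 13907, and Spi1, which encodes PU.1, 1499 and 1633. Id3, which sustains mouse Kupffer cell identity, had 1961 and 2107. Bhlhe41, Epas1 and Gata6, the last a factor of peritoneal macrophages, were not detected.

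Factors of interferon, STAT and NF-kB signalling were detected for 19 of 20. Irf1 had 29184 and 29243, Irf7, the factor that amplifies type I interferon, 23663 and 26406, Irf2 13092 and 11923 and Irf5 9599 and 9231. Rela, a subunit of NF-kB, had 8131 and 8237, and its inhibitor Nfkbia 6040.3 and 5814. Stat5b was not detected.

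Nuclear receptors were the least detected of the factor lists, 16 of 44, with a median of 293. Nr1h3 had the highest signal, and next came Rxrb, a shared partner, with 4272 and 4456, Pparg, the fatty acid sensor, with 2855 and 3016, and Esrra with 2956 and 2884. Rora, the target the labels give for the compounds of this series, had 236 and 232 with 1 probe, while its other probe was not detected. The bile acid receptor Nr1h4 and the xenobiotic receptor Nr1i2, both known from hepatocytes, and Nr1h5 were at background. Klf4, a factor tied to M2 activation that is not a nuclear receptor, had 390.2 and 345 with the brightest of its 3 probes.

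Immediate early genes were detected for 11 of 17, with a median of 3331. Zfp36, which destabilises cytokine messages, had 13579 and 13244, the phosphatase Dusp1 10808 and 10064, Junb 7528 and 7376 and Ier3 6847 and 5801. These genes respond quickly to many stimuli, and the labels give no culture time for the M0 cells. Fosb, Ier2 and Myc were not detected.

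The M0 cells had bright signals for some inflammatory genes and none above background for others. Of 23 probed M1-associated genes, 18 were detected, with a median of 4248. The chemokine Ccl4 had 31126 and 32775, Ccl5 20722 and 19217, the costimulatory protein Cd86 14759 and 14855 and the cytokine Il1b 13805 and 13305. Nos2, the inducible nitric oxide synthase, Il6 and Il12a were not detected on either M0 array. Of 22 probed M2-associated genes, 16 were detected, with a median of 839. Tgm2, transglutaminase 2, had 33949 and 32709 and Arg1, arginase 1, 3293 and 3920.2. Ccl17, Ccl22 and Clec10a were not detected. Both lists were therefore present in part in cells to which neither LPS nor IL-4 had been added.

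Both antigen presentation lists had medians above that of all detected genes. Of the class II list 9 of 12 were detected, with a median of 7927. H2-Ab1, a class II beta chain, had 35572 and 32937, H2-Eb1 11282 and 12197, and Ifi30, the thiol reductase that unfolds antigen in lysosomes, 10799 and 11058. H2-Oa and H2-Ob, the chains of the class II modifier of B cells, were not detected. Of the class I list 14 of 15 were detected. H2-T23, a non-classical class I chain, had 43186 and 43766, and the immunoproteasome subunits Psmb10 and Psmb9 had 16380.0 and 18055, and 12861 and 13238.

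Housekeeping lists set the scale for these values. Ribosomal protein genes had the highest median, 24725, with 27 of 32 detected, and Rplp2, Rpl6 and Rpl14 among those at background. Glycolysis genes were detected for 12 of 15, with Hk3 at 19359 and 20106, Gapdh at 18953 and 19139 and Pgk1 at background. Respiratory chain genes were detected for 19 of 21, led by Atp5b at 42585 and 43639.8, and actin cytoskeleton genes for 16 of 17. Cell cycle genes were detected for 14 of 19 with a median of 429. Ccnd1, cyclin D1, had 8745 and 8495, while the mitotic genes Ccna2, Ccnb2 and Bub1 were not detected.

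Markers of other liver and blood cells were mostly dim or undetected, with exceptions. The counts below stand beside the 46.2% detected over all genes with a probe. In RNA of a whole culture, fewer cells of a type and less RNA per cell cannot be told apart. Hepatocyte markers were detected for 7 of 17. Alb, albumin, was at 157 and 161 and was detected on no array of the M0, LPS, IL-4 or vehicle groups. Ttr, transthyretin, had 396 and 385 and Hp, haptoglobin, 383 and 302, while Trf, transferrin, had 5352 and 4871. Stellate cell and fibroblast markers were detected for 3 of 14, with Dcn, decorin, at 502 and 457 and the collagens Col1a1, Col1a2 and Col3a1 undetected. Sinusoidal endothelial markers were detected for 15 of 18 (83.3%), with a median of 792, close to the 818 of all detected genes. Egfl7 had 2599 and 2626, and the scavenger receptors Stab2 and Stab1, the second also a macrophage gene, had 1996 and 1945, and 1921 and 1778. Lyve1, a hyaluronan receptor of sinusoidal endothelium, had only 246 and 222.

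Among blood cells, monocyte markers were detected for 2 of 6, with Plac8 at 7024 and 7608, and Ccr2, Cx3cr1 and F13a1 undetected. T and NK cell markers were detected for 8 of 13. Nkg7, a granule membrane protein, had 1631 and 1797 and the T cell receptor chains Cd3g, Cd3d and Cd3e had 1406 and 1455, then 927 and 1072, and 574 and 547. Cd4, Cd8a and Gzma were undetected. B cell markers were limited to Cd79b at 353 and 358, 1 of 7. Neutrophil markers were detected for 5 of 11, with a median of 243. The highest mean signal was 2030, that of the receptor gene Csf3r, and S100a8 had 329.8 and 325. The alpha hemoglobin gene Hba-a1 had 688 and 870.1. Dendritic cell markers were detected for 4 of 10, led by Batf3 at 852 and 1033, with Flt3, Zbtb46 and Xcr1 undetected.

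**Figure D4:**
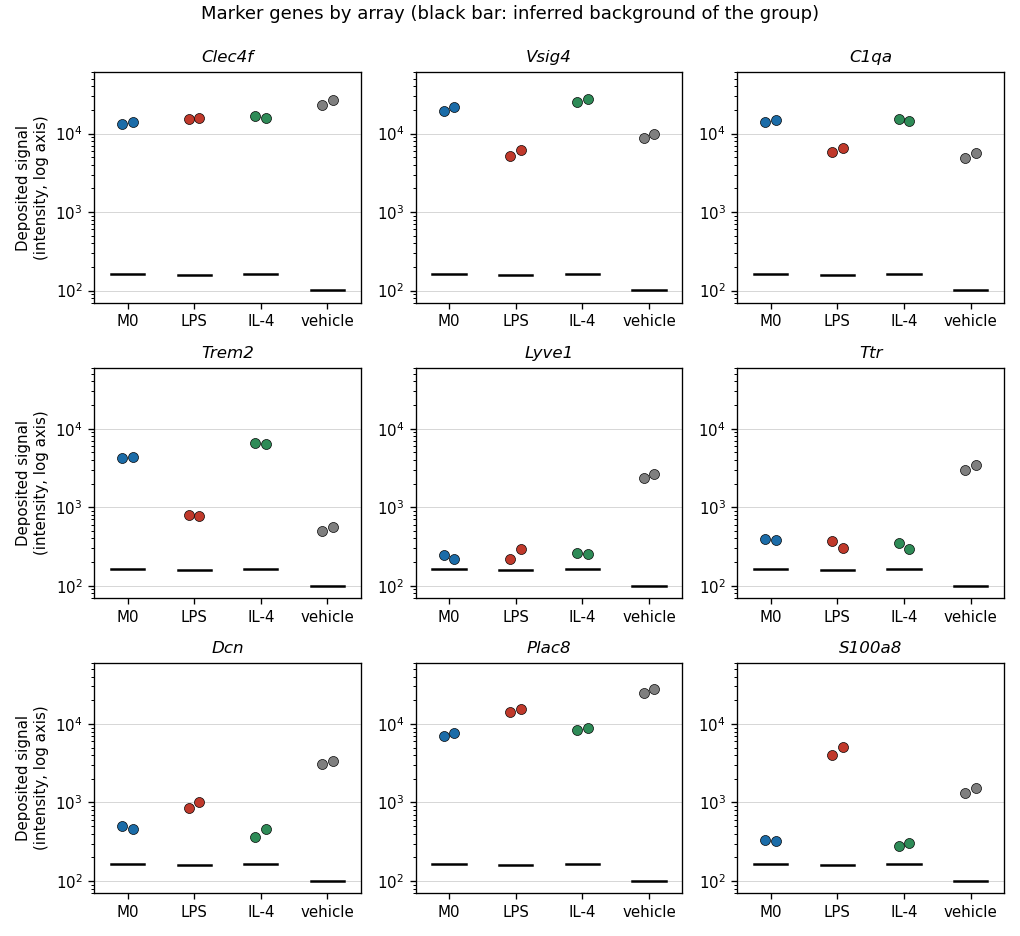
Signal of 9 marker genes on each array of the M0, LPS, IL-4 and vehicle groups, on log axes in arbitrary units, with a black bar at the mean inferred background of each group. Clec4f, Vsig4 and C1qa lie far above background in all groups. In M0, Lyve1 is near background, and Ttr and Dcn are dim but clearly above it. Ttr, Lyve1 and Dcn are each higher in the vehicle cells.

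The set of genes that M0 cells held was largely shared with the other groups. Of the genes detected on both M0 arrays, 94.4% were detected on both LPS arrays, 95.9% on both IL-4 arrays and 95.2% on both vehicle arrays. Of the 100 brightest genes of M0, 77 were among the 100 brightest of LPS, 86 of IL-4 and 68 of vehicle cells. Over the probes, 9916 were detected on all 12 arrays and 20 on the M0 arrays alone.

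Differences between M0 and another group were tested on background-corrected log2 values, as M0 minus the other group, so that a positive difference means higher in M0. The 3 comparisons share the M0 arrays. Counts below are of list members detected on both M0 arrays, beside the share of all 8442 tested genes detected there. In M0 against LPS 19.9% of these genes were higher in M0 and 14.0% lower (33.9% in all), in M0 against IL-4 13.2% were higher and 8.87% lower (22.0%), and in M0 against vehicle 42.1% were higher and 26.3% lower (68.4%). Their median differences were 0.05, 0.05 and 0.17. Over all 10255 genes tested, 16.9% were higher in M0 and 13.5% lower against LPS (30.3% in all), 11.1% and 8.46% against IL-4 (19.6%), and 35.2% and 28.7% against vehicle (63.9%).

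Against LPS, the C1q chains, Vsig4, Axl, Mrc1 and Pparg were higher in M0, and most M1-associated genes on the list were lower. Of 15 complement genes 7 were higher and 6 lower, with the C1q chains and Vsig4 among the higher. C1qa had 14085 and 14902 in M0 and 5816 and 6448 in LPS cells, a log2 difference of 1.20 ± 0.07 (SE, adjusted p = 8.99e-06). For C1qb the difference was 0.75 ± 0.08 (adjusted p = 1.71e-04) and for C1qc 1.41 ± 0.09 (adjusted p = 1.43e-05). Vsig4 had 19556 and 21537 in M0 and 5112 and 6230.5 in LPS cells, a difference of 1.92 ± 0.10 (adjusted p = 3.65e-06). In all of these the M0 and LPS arrays did not overlap.

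Of 17 macrophage genes 8 were higher in M0 than in LPS cells and 2 lower, and the lower were Cd14 and Itgam. Cd14 had 10101 and 10079 in M0 and 20117 and 23563 in LPS cells (-1.33 ± 0.10, adjusted p = 2.31e-05). Trem2, a lipid-binding receptor named here after its values were seen, had 4294 and 4417 in M0 and 786 and 773 in LPS cells. Of 18 Kupffer cell identity genes 9 were higher and 5 lower. Spic was among the lower, with 18284 and 18122 in M0 and 34276 and 34086 in LPS cells (-1.11 ± 0.10, adjusted p = 7.53e-05). The identity list thus moved in both directions.

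Among receptors, Toll-like receptor genes were higher in M0 for 8 of 16 and lower for 4. Axl had 32373 and 34240.4 in M0 and 13829.5 and 13703 in LPS cells (1.27 ± 0.08, adjusted p = 1.22e-05), and Clec7a 7833 and 8134 in M0 and 2514 and 2169 in LPS cells (1.73 ± 0.15, adjusted p = 5.51e-05). Mrc1 differed by 1.93 ± 0.09 (adjusted p = 1.85e-06), Tgfbr1 by 1.29 ± 0.08 (adjusted p = 9.06e-06) and Cxcr4 by 1.92 ± 0.16 (adjusted p = 4.32e-05), all higher in M0. The largest of the named nuclear receptor differences was that of Pparg, with 2855 and 3016 in M0 and 538 and 549 in LPS cells (2.58 ± 0.10, adjusted p = 6.45e-07). Nuclear receptors as a list were higher in M0 for 4 of 16 and lower for 1.

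Of 18 M1-associated genes 13 were lower in M0 than in LPS cells and 2, Cd86 and Irf5, were higher. Il1b had 13805 and 13305 in M0 and 21859.5 and 21951 in LPS cells (-0.92 ± 0.08, adjusted p = 4.54e-05). Nos2 and Il6, undetected in M0, were detected on both LPS arrays and were at least 1.31-fold and 1.33-fold higher there. Each such bound is the lowest over the scalings tried, set against the dimmest detected signal where the gene itself lay below it, and background-corrected values gave 2.22-fold and 2.29-fold here. Lcn2, an iron-siderophore binding protein, had 292 and 296 in M0 and 5175 and 5927 in LPS cells (-5.16 ± 0.23, adjusted p = 1.63e-06), and Ptges, a prostaglandin E synthase, 233 and 229 in M0 and 1889.8 and 2317 in LPS cells (-4.45 ± 0.12, adjusted p = 1.90e-07). S100a8, a calcium-binding protein of neutrophils and activated macrophages, had 329.8 and 325 in M0 and 3990.3 and 5144 in LPS cells (-4.59 ± 0.15, adjusted p = 4.57e-07). Without background correction the differences were smaller, -4.38 for Lcn2, -3.35 for Ptges and -3.92 for S100a8, and past the threshold.

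Markers of other cell types moved with this comparison. Their signal above background, before normalization, was summed over each list, to be set side by side between groups within a list and not between lists. For neutrophil markers the sum was 2169 and 2232 in M0, against 6347 and 7696 in LPS cells, and S100a8 made up most of the gain. The defining granule genes Ngp, Mpo, Retnlg and Mmp8 were detected on no M0 or LPS array, and of the 5 members detected on both M0 arrays 2 were higher and 2 lower in M0. Monocyte markers summed to 7720 and 8385 in M0, against 14837 and 16171 in LPS cells, nearly all of it Plac8, while Ccr2, Cx3cr1 and Vcan were detected in neither group. T and NK cell markers summed to 4421 and 4749 in M0, against 2711 and 2923 in LPS cells, and 5 of 8 were higher in M0. The part of such cells in the differences was not tested.

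Metabolic and growth lists also differed. Glycolysis genes were lower in M0 for 10 of 12 and higher for 1, and Pkm, the muscle pyruvate kinase gene, had 15276 and 15804 in M0 and 25169.5 and 25827 in LPS cells (-0.92 ± 0.09, adjusted p = 9.87e-05). Ribosomal protein genes were higher in M0 for 18 of 27, and the median difference of the 27 was 0.31. Cell cycle genes were higher for 10 of 14 and lower for 1, with Ccnd1 at 8745 and 8495 in M0 and 3421 and 3276 in LPS cells (1.33 ± 0.09, adjusted p = 1.99e-05). Lysosome genes were higher for 11 of 24 and lower for 2. Lpl had 39413 and 36537 in M0 and 16482 and 16364 in LPS cells (1.17 ± 0.09, adjusted p = 2.42e-05).

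The genes furthest above LPS cells were not all bright. Hpgd, which inactivates prostaglandins, had 774 and 737 in M0 and was undetected in LPS cells, at least 3.7-fold higher in M0 and 10.3-fold by background-corrected values (adjusted p = 1.76e-06). Nrp1, a co-receptor for semaphorins and VEGF, had 2315 and 2615 in M0 and 363 and 383 in LPS cells (3.05 ± 0.11, adjusted p = 6.05e-07). Dysf, Anln and Sdc2 were also undetected in LPS cells and at least 2.24-fold, 1.91-fold and 2.05-fold higher in M0. Background-corrected values gave 5.4-fold, 4.28-fold and 4.79-fold. Of the 3110 genes called in all, 1729 were higher in M0 and 1381 lower, and with each array centred on its median in place of quantile normalization the split was 2642 and 953. With the 6 M0, LPS and IL-4 arrays fitted alone, 1918 genes were called.

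Against IL-4, most M2-associated genes were lower in M0, and Cd14, Tlr2, Fpr2 and Clec4n were higher. Of 16 M2-associated genes 14 were lower in M0, and the median difference of the 16 was -1.64. Retnla, a secreted resistin-like protein, had 213 and 229 in M0 and 9724 and 7173 in IL-4 cells (-6.69 ± 0.26, adjusted p = 1.69e-06), and the difference was -5.41 without background correction. Ccl24, an eosinophil attractant, had 614 and 745 in M0 and 9399.9 and 7363 in IL-4 cells (-4.03 ± 0.14, adjusted p = 9.46e-07). Arg1 had 3293 and 3920.2 in M0 and 28214 and 29311 in IL-4 cells (-3.29 ± 0.16, adjusted p = 7.43e-06), and Mrc1 5564 and 5834 in M0 and 14544 and 12475 in IL-4 cells (-1.40 ± 0.09, adjusted p = 3.98e-05). Pdcd1lg2, Clec10a and Ccl17, undetected in M0, were at least 3.88-fold, 1.96-fold and 1.23-fold higher in IL-4 cells, and 11.0-fold, 4.55-fold and 1.9-fold by background-corrected values. Arg1 was also lower in M0 than in LPS cells, 18491 and 19478 (-2.75 ± 0.16, adjusted p = 7.19e-06).

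Several receptors of bacterial products were higher in M0 than in IL-4 cells. Cd14 had 10101 and 10079 in M0 and 4111 and 4099 in IL-4 cells (1.36 ± 0.10, adjusted p = 7.42e-05), Tlr2 8720.2 and 8202 in M0 and 2975 and 3094 in IL-4 cells (1.58 ± 0.11, adjusted p = 5.64e-05), and Fpr2 23247 and 19699.7 in M0 and 8167 and 9315 in IL-4 cells (1.39 ± 0.12, adjusted p = 1.85e-04). Clec4n had 9164 and 8927 in M0 and 2429 and 2653 in IL-4 cells (1.96 ± 0.10, adjusted p = 7.88e-06), whereas the beta-glucan receptor Clec7a had 7833 and 8134 in M0 and 18069 and 14524 in IL-4 cells and was lower in M0 (-1.17 ± 0.15, adjusted p = 0.00118). Over the lists, 4 of 16 Toll-like receptor genes were higher and 3 lower, and 5 of 13 C-type lectin genes each way. The interferon-induced membrane protein gene Ifitm6 had 393 and 410.0 in M0 and 188 and 208 in IL-4 cells (2.28 ± 0.21, adjusted p = 2.30e-04), a difference of 1.15 without background correction.

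Of 18 Kupffer cell identity genes 4 were higher in M0 than in IL-4 cells and 8 lower. Spic was higher, with 18284 and 18122 in M0 and 7525 and 8324 in IL-4 cells (1.24 ± 0.10, adjusted p = 1.31e-04). Vsig4, at 19556 and 21537 in M0 and 25336 and 27389.9 in IL-4 cells, differed by -0.41 ± 0.10 (adjusted p = 0.0198), a call that was lost with the first M0 array left out (-0.33), the second IL-4 array left out (-0.37), or median centring (-0.32). It was also lost with the M0 and IL-4 arrays alone (adjusted p = 0.151) and with the 6 M0, LPS and IL-4 arrays alone (adjusted p = 0.104). Klf4 was lower in M0 (-1.50 ± 0.17, adjusted p = 6.64e-04). For Rora the difference was 0.56 ± 0.15 (adjusted p = 0.0321), but it was 0.23 without background correction and 0.18 with the authors' values, neither past the threshold. The call was also lost when the first (0.54) or second (0.59) M0 array or the first IL-4 array (0.45) was left out, and in the same 2 smaller sets of arrays (adjusted p = 0.105 and 0.0642). The C1q chains, with differences of -0.10 ± 0.07, -0.18 ± 0.08 and -0.27 ± 0.09, did not pass the test. Ribosomal protein genes were called for 2 of 27 and respiratory chain genes for 1 of 19.

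Cell cycle genes were lower in M0 than in IL-4 cells for 6 of 14 and higher for 1, with Ccnd1 at 8745 and 8495 in M0 and 15613 and 14248 in IL-4 cells (-0.91 ± 0.09, adjusted p = 4.18e-04). The dendritic cell marker list summed to 1072 and 1233 above background in M0, against 5627 and 3526 in IL-4 cells, through Batf3 (5304 and 3283 in IL-4 cells), while Flt3, Xcr1, Clec9a and Cd209a were undetected in both groups. T and NK cell markers summed to 4421 and 4749 in M0, against 3245 and 3067 in IL-4 cells, and 5 of 8 were higher in M0. Sinusoidal endothelial markers summed to 12412 and 12169 in M0, against 17883 and 15582 in IL-4 cells, and of 15 members 2 were higher and 6 lower in M0. The part of these cells was not tested. Of the 2007 genes called in all, 1139 were higher in M0 and 868 lower, and 1439 and 684 with median centring. The total depended on which arrays were fitted. It was 693 with the 6 M0, LPS and IL-4 arrays fitted alone and 230 with the M0 and IL-4 arrays alone.

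Against vehicle, which also had no polarising treatment, the M0 arrays differed in more genes than against LPS or IL-4. All vehicle, SR3335 and SR1078 arrays had a lower background than the M0, LPS and IL-4 arrays, and the authors normalized these as separate sets, so array set and group cannot be told apart here. Complement genes were higher in M0 for 11 of 15 and lower for 4, with C1qa at 14085 and 14902 in M0 and 4896 and 5707 in vehicle cells (1.45 ± 0.07, adjusted p = 6.87e-07). Nr1h3 had 13580.4 and 13907 in M0 and 4974 and 5326 in vehicle cells (1.40 ± 0.08, adjusted p = 1.46e-06), and Tlr2 8720.2 and 8202 in M0 and 1606 and 2054 in vehicle cells (2.15 ± 0.11, adjusted p = 6.28e-07). Clec4f was lower in M0, with 13315 and 14106 in M0 and 23090.5 and 26549.7 in vehicle cells (-0.69 ± 0.08, adjusted p = 5.11e-05).

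Most M1-associated and antigen presentation genes on the lists were lower in M0 than in vehicle cells. Of 18 M1-associated genes 14 were lower and 1 higher, of 9 class II genes 8 were lower, and of 14 class I genes 9 were lower. Ccl5 had 20722 and 19217 in M0 and 50625 and 53744 in vehicle cells (-1.18 ± 0.07, adjusted p = 2.08e-06), and H2-Ab1 35572 and 32937 in M0 and 55878 and 59831 in vehicle cells (-0.52 ± 0.09, adjusted p = 0.00108). Nos2 and Il6, undetected in M0, were at least 5.18-fold and 3.07-fold higher in vehicle cells, and 17.5-fold and 9.59-fold by background-corrected values. Ribosomal protein genes were higher in M0 for 22 of 27 and lower for 1, and glycolysis genes lower for 8 of 12. With the authors' normalized values, set separately for each array set, 5928 genes were higher in M0 and 2177 lower in place of 3609 and 2940, so the balance of directions depended on the scaling.

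Markers of other cell types moved with the vehicle comparison. Hepatocyte markers detected on both M0 arrays were lower in M0 for 6 of 7 and higher for 1. Of all 13 tested members 12 were lower and 1 higher, beside 28.7% and 35.2% of all 10255 genes. Cyp2e1, undetected in M0, was at least 3.34-fold higher in vehicle cells, and 10.6-fold by background-corrected values. Background-corrected values also gave 1.58-fold for Cyp3a11 and 1.65-fold for Asgr1, both undetected in M0, but the authors' values gave 0.94-fold and 0.96-fold. The list summed to 6162 and 5503 above background in M0, against 11237 and 13611 in vehicle cells. Most of the M0 sum was Trf, with a mean signal of 5111. Ttr had 396 and 385 in M0 and 2944 and 3466 in vehicle cells (-3.73 ± 0.21, adjusted p = 1.17e-06), and the difference was -3.09 with the authors' values. Stellate cell markers summed to 643 and 606 in M0, against 3474 and 3786 in vehicle cells, nearly all of it Dcn, while Col1a1, Col3a1 and Lrat were undetected in both groups. Of 6 tested members 2 were lower in M0 and 0 higher. Reln, undetected in M0 and detected on both vehicle arrays, was at least 1.14-fold higher there, and 2.27-fold by background-corrected values. Monocyte markers summed to 7720 and 8385 in M0, against 27044 and 30887 in vehicle cells, sinusoidal endothelial markers to 12412 and 12169, against 21917 and 25080, and neutrophil markers to 2169 and 2232, against 5116 and 5750. The macrophage list summed to 320788 and 324982 in M0, against 280123 and 306872 in vehicle cells. All these sums are of signals before normalization, which are not on one scale between the M0 and vehicle arrays. The part of these cells in the differences was not tested.

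**Figure D5:**
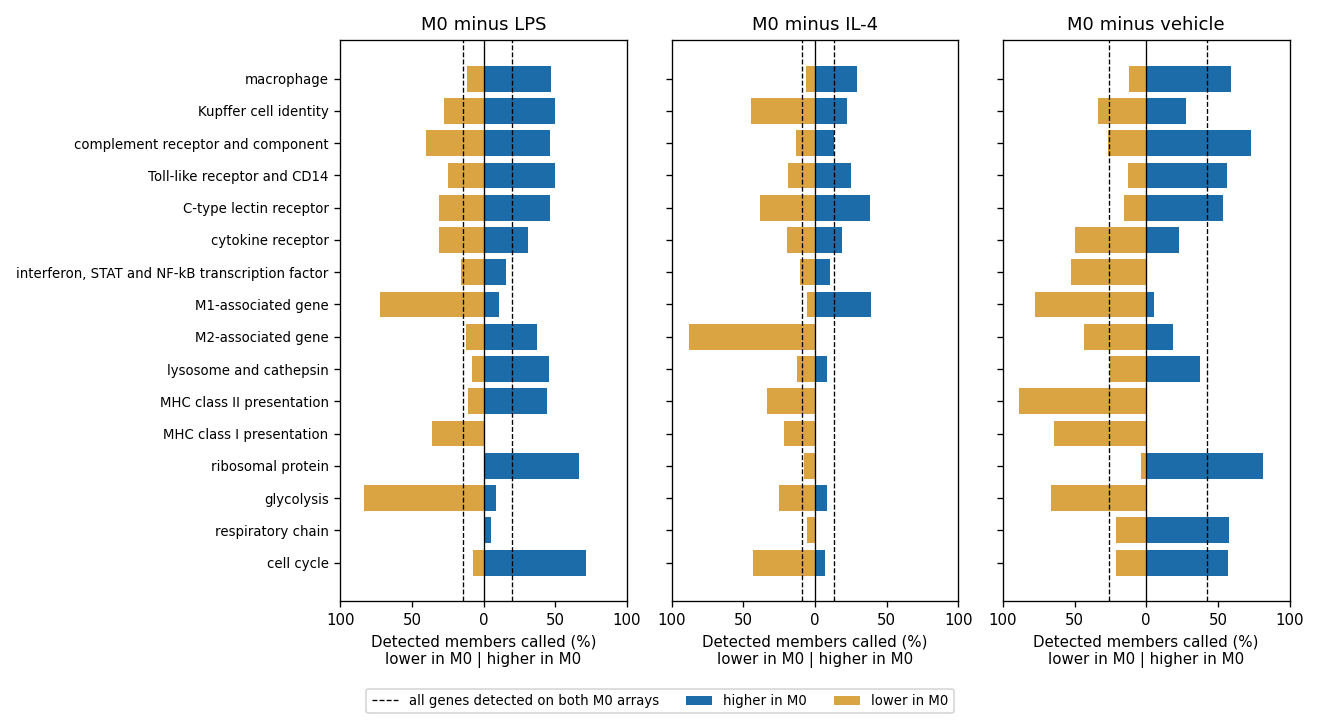
Percent of the members of 16 gene lists, among those detected on both M0 arrays, that were higher (right, blue) or lower (left, ochre) in M0 at an adjusted p under 0.05 against LPS, IL-4 and vehicle cells. Dashed lines give the same share over all genes detected on both M0 arrays, for example 19.9% higher and 14.0% lower against LPS.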

How the data were processed

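RNA of 12 samples was hybridised to Illumina mouse bead arrays, 1 colour, 2 arrays for each of 6 groups. The deposited intensity of each probe is the authors' bead-level summary before normalization, and the detection p-value beside it is the authors' comparison with negative control beads, per the file headers; GenomeStudio 2011.1 is named in the submitters' processing notes. The authors' deposited log2 values were found, by recomputing them, to be quantile normalized within 2 sets of 6 arrays, with 0 probes off by over 0.011 in the set with M0 and 30 in the set with vehicle, and served as an alternative. Here the intensities were background corrected with limma 3.58.1 (normexp, controls inferred from detection p-values, offset 16), quantile normalized across the 12 arrays and expressed as log2. A probe entered the test if 2 or more arrays detected it at p under 0.05, and each gene used its brightest such probe, which left 10255 genes. The limma model had a mean for each of the 6 groups and 6 residual degrees of freedom, and p-values were adjusted by Benjamini-Hochberg with a threshold of 0.05. For 139 genes the probe tested was not the one ranked in M0. A gene undetected on both arrays of a group got a bound, against the higher of its own value and the lowest detected signal, and the lowest such fold over the main values, no background correction, median centring and the authors' values, a choice made after seeing the data, was printed as the bound. The number of arrays limits precision.

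On data simulated for M0 minus LPS over 10255 genes, 18 of 67 genes changed by 0.5 on the log2 scale, 51 of 67 by 1 and 62 of 66 by 2 were called, as were 9 of 10055 unchanged ones. The changed genes were a far smaller part there than the 30.3% called in the data. The adjusted threshold was thus stricter in the simulation, and these rates do not give the power of the real comparison. The labels do not say whether arrays with the same replicate number belong together, and the main fit did not pair them. Members and lists were chosen with earlier results of these data known. The text names the 30 brightest named genes, up to 4 brightest detected and 3 undetected genes of each list, Rora, Klf4, Cd74, C1qa and Vsig4, the 5 largest differences each way against LPS and IL-4, and the 5 largest gaps within M0. Other genes were named after their values were seen.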

Additional observations from a re-analysis of the deposited data

How the results depend on the processing

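Settings were changed 1 at a time. With detection p under 0.01 the neutrophil list kept 3 genes detected in M0 and the bile duct list 0. Genes called for M0 minus LPS numbered 1918 with the 6 M0, LPS and IL-4 arrays normalized and fitted alone, a setting chosen after seeing the data, and for M0 minus IL-4 693. With the 2 compared groups alone, M0 minus IL-4 gave 230. Leaving out 1 array gave 2134 to 2379 calls for M0 minus LPS, 1069 to 2665 for M0 minus IL-4 and 5612 to 5931 for M0 minus vehicle. With replicate number as a block the counts were 3022, 1835 and 6466. The difference between the first and second array of a group correlated at -0.038 to 0.097 between groups. Whether arrays with the same number belong together is not in the labels. With the authors' normalized values, the M0 minus vehicle differences of Tmbim6 (-0.001175), Fcgr4 (-0.058), Apoc1 (-0.084) and Arg1 (0.56) changed sign, and the median difference of all genes was 0.303, beside 0.07 as reported. With median centring that median was 0.132 for M0 minus LPS, beside 0.03, and 73.5% of calls were higher in M0 against 55.6%, and gave 67.8% against 56.8% for M0 minus IL-4. The authors' values gave 73.1% against 55.1% for M0 minus vehicle. The cause was not tested. Of the values of single genes under the alternatives, 1059 of 1182 stayed on their side of the threshold for LPS, 647 of 766 for IL-4 and 1183 of 1246 for vehicle. Signals near background limit the dim genes most.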
